A study of Mus musculus with 6 samples.

Results

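The genes of arginine use and of the IL-4 response were followed in tumor-associated macrophages (TAMs) of an ovarian cancer model, with and without the C5a receptor. The 7 genes are the arginases Arg1 and Arg2, the inducible nitric oxide synthase Nos2, the secreted IL-4 effectors Retnla and Chil3, and the receptor chains Il4ra and Il13ra1. They were taken from a table of 56980 genes by matching Ensembl gene ID to symbol, and all 7 were found. ID8 cells, a mouse ovarian epithelial cancer line, were injected intraperitoneally into female C57BL/6 (WT) mice or into female C5aR knockout mice on the same background (C5aR-/-, labelled C5aR KO), bought at an age of 6 to 8 weeks. The knockout is carried by all cells of the host, and the ID8 cells are the same in both groups. TAMs were sorted from abdominal tumors 2 months later as live CD45+CD11b+Ly6G-F4/80+ cells, and poly(A) RNA of 3 libraries per group was sequenced. The figure legend of the study gives 4 mice per group, and whether each of the libraries analysed here is from a single mouse is not stated in the labels, so the p-values measure the spread between these libraries.

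Arginine is taken up by macrophages and split by competing enzymes. Arginase turns it into ornithine and urea, and ornithine feeds the polyamines and proline, whereas inducible nitric oxide synthase turns it into nitric oxide and citrulline. IL-4 and IL-13 bind receptors that share the Il4ra chain, activate STAT6 and induce Arg1, Retnla (also known as Fizz1) and Chil3 (also known as Ym1) in mouse macrophages, while interferon-gamma and bacterial products induce Nos2. A high Arg1 level is a common feature of TAMs, in which arginine depletion can restrain T cells.

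Expression was given as TPM (transcripts per 1000000), a scale that takes out transcript length and library size, so that levels of different genes can be compared within a library. TPM keeps no record of depth, so the precision of a single value is unknown. Each library held from 14393 to 15015 genes at a TPM of 1 or more. The deleted gene, C5ar1, reached 86.5, 37.3 and 16.2 TPM in the WT libraries against 0.38, 0.11 and 0.05 in the C5aR-/- libraries. The markers of the sorted cell type differed widely within each group. All 10 macrophage markers listed were detected, among them Adgre1 (the gene of F4/80), Csf1r and Lyz2, and their summed TPM was from 2383 to 8393 in WT and from 2301 to 8100 in C5aR-/- libraries. In each group replicate 1 had the highest and replicate 3 the lowest sum. Transcripts of other cells were present as well, since the 5 epithelial tumor markers together reached a TPM from 1837 to 2034 in WT and from 1664 to 2206 in C5aR-/- libraries. Nearly all of this sum was Krt8, Krt18 and Krt19, while Epcam was at most 6.33 and Krt7 at most 16.05. The mesothelial marker Wt1 was high too, from 338 to 451 in WT and from 331 to 395 in C5aR-/- libraries. Which cells the keratin transcripts and those of the mesothelial markers came from was not tested. In such mixed RNA, fewer cells of a type and less RNA per cell cannot be told apart.

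The genes lie on 7 different chromosomes. In the GENCODE M21 annotation of GRCm38, the assembly that the submitters' processing notes name as mm10, Arg1 is a protein-coding gene on the minus strand at chr10:24915221-24927484, Arg2 lies at chr12:79130777-79156301 on the plus strand, and Nos2 lies at chr11:78920787-78960254 on the plus strand. Retnla is at chr16:48842551-48844461 (plus strand) and Chil3 at chr3:106147554-106167564 (minus strand). Il4ra is at chr7:125552120-125579474 and Il13ra1 at chrX:36112110-36171259, both on the plus strand.

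Promoter windows of RefSeq on GRCm38.p6, with 250 bases before and 50 after the start of the gene, were matched for 4 of the 7 genes (Retnla, Chil3, Il4ra and Il13ra1). Those of Retnla and Chil3 are shown because these IL-4 effectors had the most similar pattern of all pairs of members. The Retnla window is chr16:48842359-48842658 on the plus strand and the Chil3 window chr3:106167515-106167814 on the minus strand, both written 5′ to 3′. The start is the RefSeq start, which is chr16:48842609 for Retnla, 58 bases downstream of the GENCODE gene start given above, and which for Chil3 is the GENCODE start itself. It lies 151 bases downstream of the GENCODE start for Il4ra and 2 bases upstream for Il13ra1. Capitals mark the letters TTC and GAA set 4 bases apart (the spacing preferred by STAT6) or 3 bases apart (the spacing of other STAT factors), and the TATA box TATAAA, searched on both strands.
Retnla: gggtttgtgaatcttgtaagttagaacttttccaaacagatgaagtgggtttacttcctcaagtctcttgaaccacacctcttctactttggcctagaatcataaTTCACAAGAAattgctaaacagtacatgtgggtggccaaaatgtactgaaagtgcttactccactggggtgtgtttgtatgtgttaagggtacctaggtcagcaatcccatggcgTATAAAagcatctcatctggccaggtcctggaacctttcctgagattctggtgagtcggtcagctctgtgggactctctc
Chil3: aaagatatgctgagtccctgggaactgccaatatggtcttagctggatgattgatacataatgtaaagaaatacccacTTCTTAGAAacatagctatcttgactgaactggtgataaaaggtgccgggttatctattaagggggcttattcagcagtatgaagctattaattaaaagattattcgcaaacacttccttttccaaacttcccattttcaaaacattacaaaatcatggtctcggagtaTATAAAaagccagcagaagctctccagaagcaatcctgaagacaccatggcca
The Retnla window holds TTCACAAGAA, a match to the STAT6 spacing, 145 bases before the RefSeq start, and a TATA box 30 bases before it. The Chil3 window holds TTCTTAGAA, a match to the shorter spacing, 172 bases before the RefSeq start. Its TATAAA begins 3 bases before that start and runs across it. The matches do not overlap each other. Neither the Il4ra nor the Il13ra1 window holds any of the 3 motifs. Of all 32851 promoter windows, 6.95% hold the wider spacing, 8.3% the shorter one and 13.6% TATAAA, so a match is a description of the letters and not evidence of a bound site.

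Arg1 was the most abundant of the 7 genes in 5 of 6 libraries, and Nos2 and Arg2 had the lowest means. The mean TPM over all 6 libraries was 170 for Arg1, 85.8 for Il4ra, 40.7 for Retnla, 31.5 for Il13ra1, 14.8 for Chil3, 1.47 for Nos2 and 1.20 for Arg2. The mean log2(TPM + 1) of Arg1 was above that of 93.8% of all genes tested, and that of Il4ra above 88.8%, whereas Nos2 and Arg2 were above only 3.93% and 3.71%. For every neighbouring pair in this order the ranges of TPM over the 6 libraries overlapped. Arg1 exceeded Il4ra in 5 libraries, Il4ra exceeded Retnla in 5, Il13ra1 exceeded Chil3 in 5 and Chil3 exceeded Nos2 in 5. Retnla exceeded Il13ra1 in 3 of 6 libraries and Nos2 exceeded Arg2 in 3 of 6, so these neighbours did not differ beyond their spread.

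**Figure D1:**
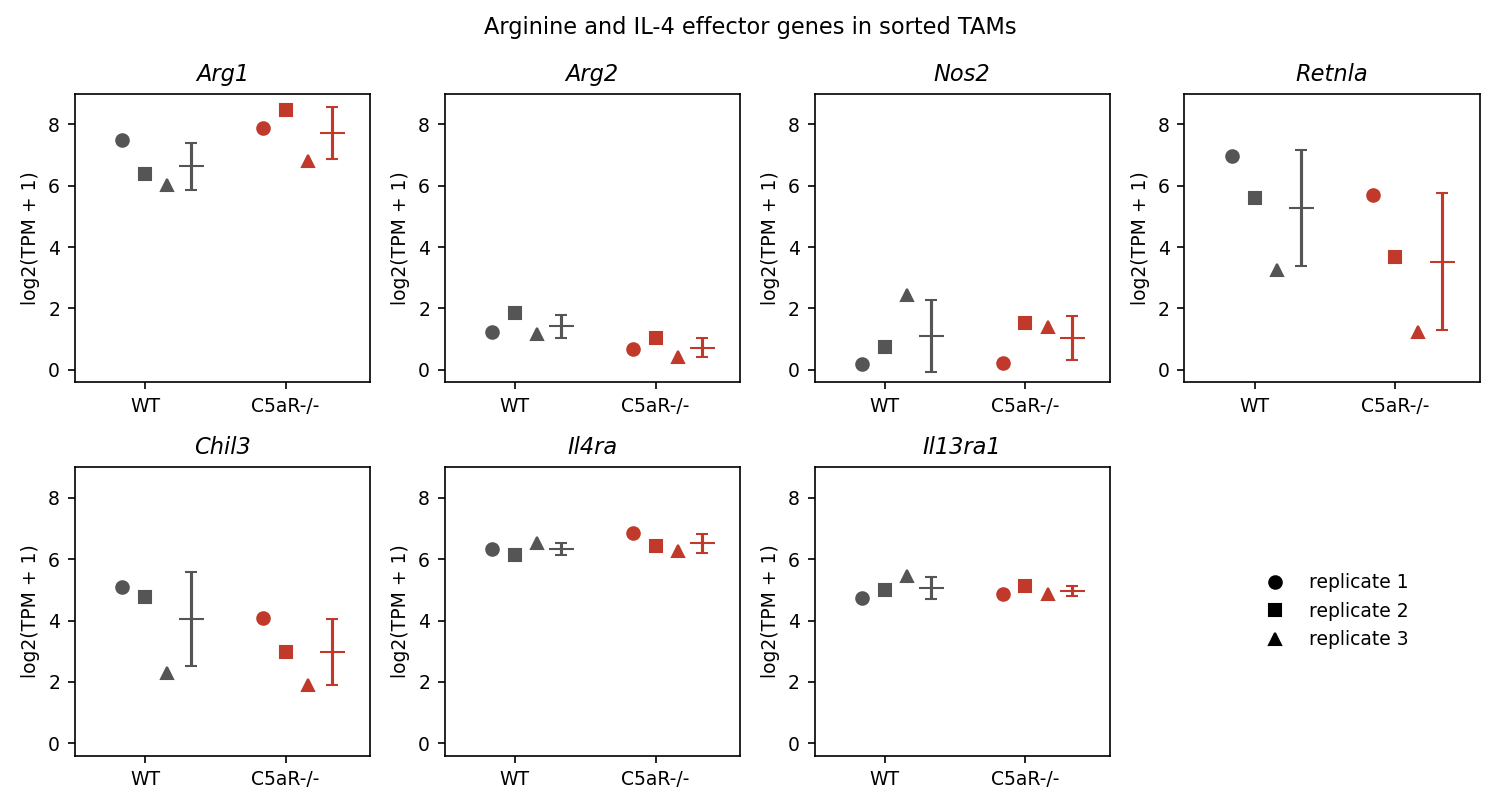
Level of each gene as log2(TPM + 1) (vertical axis) in the 3 WT (grey) and 3 C5aR-/- (red) libraries, with 1 symbol per replicate number and the mean ± SD beside each group (n = 3). Arg1 and Il4ra are high in all 6 libraries, Nos2 and Arg2 are low, Retnla and Chil3 spread most within the groups, and the groups overlap for all genes but Arg2.

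WT and C5aR-/- TAMs were compared to ask whether loss of the receptor changes the arginine and IL-4 programs. In the fit of the groups alone, none of the 7 genes differed by the thresholds used. Levels were tested as log2(TPM + 1) with limma over the 14776 genes that reached a TPM of 1 in 3 or more libraries, a filter that all 7 members passed, and p-values were adjusted by Benjamini-Hochberg over all of these genes. Where a 2-fold change and an adjusted p below 0.05 were required (limma), 0 of the 7 members and 0.0% of all tested genes were called, although 356 genes were called without C5aR-/- replicate 1, 1 without C5aR-/- replicate 2 and 3 without C5aR-/- replicate 3. With the p left unadjusted, 0 of the 7 members were called, against 4.96% of all genes (2.13% higher and 2.84% lower in C5aR-/- TAMs). With the replicate number as a block, this rule called Arg1, Retnla and Chil3, and 811 genes in all in place of 733. Whether the numbers pair the libraries is not stated in the labels. Without C5aR-/- replicate 1 619 genes in place of 314 were higher and 647 in place of 419 lower. This second rule is called the unadjusted threshold from here on. At an unadjusted p under 0.05 and any fold, 2133 of all tested genes passed, and the smallest adjusted p of any gene was 0.0666. Arg2 was the only member whose groups did not overlap, against 21.3% of all tested genes. With 3 libraries against 3, an exact permutation test of a single gene cannot give a two-sided p under 0.1.

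**Figure D2:**
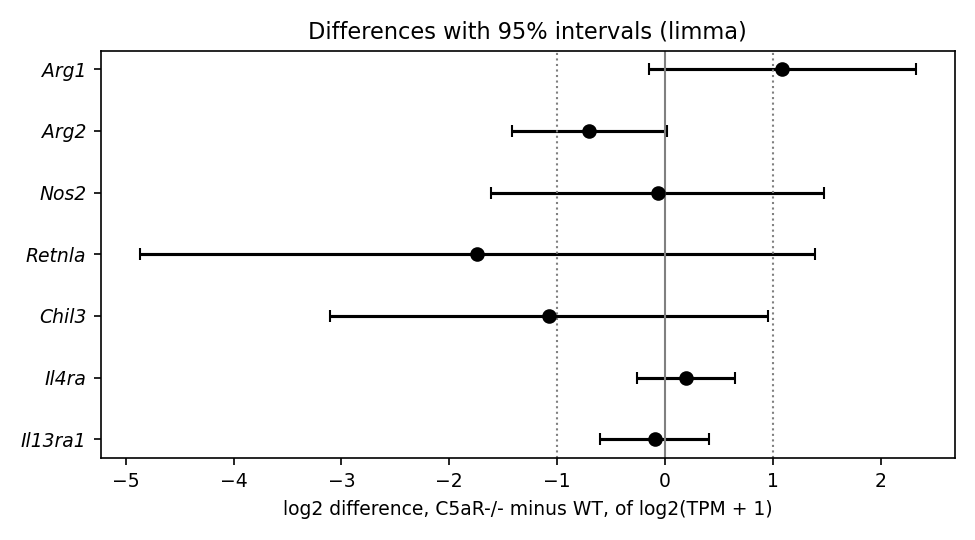
Difference of each gene, C5aR-/- minus WT, in log2(TPM + 1) (horizontal axis), with its 95% interval from limma. Dotted lines mark a fold change of 2, and the interval of every gene reaches across 0, from the widest for Retnla (-4.87 to 1.39) to the narrowest for Il4ra (-0.26 to 0.65).

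Among the enzymes that use arginine, Arg1 had the higher mean in C5aR-/- TAMs and Arg2 the lower one. Arg1, the cytosolic arginase, had a TPM of 179.8, 81.8 and 63.6 in WT replicates 1, 2 and 3 and of 237, 349 and 111 in C5aR-/- replicates 1, 2 and 3. The highest value was that of C5aR-/- replicate 2, and the groups overlapped, since WT replicate 1 lay above C5aR-/- replicate 3. The log2 difference was 1.09 (standard error 0.52, 95% interval -0.15 to 2.33, adjusted p = 0.397 from limma), which is 2.13-fold on this scale with bounds of 0.902-fold and 5.01-fold. The value of Arg1 depended on single libraries, as the log2 difference was 1.54 without C5aR-/- replicate 3 and 1.52 without WT replicate 1, both past the unadjusted threshold (unadjusted p = 0.0153 and 0.0218, limma), and 0.72 without C5aR-/- replicate 2.
Hepatocytes, which use Arg1 in the urea cycle, had almost no transcripts in these libraries. Of the 6 hepatocyte markers listed, Cps1 and Serpina1a were listed at 0 in all 6 libraries, and the summed TPM of all 6 was at most 1.64 in WT and 0.66 in C5aR-/- libraries.

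Arg2, the mitochondrial arginase, had a TPM of 1.35, 2.59 and 1.27 in WT and of 0.60, 1.06 and 0.35 in C5aR-/- TAMs. Every WT library lay above every C5aR-/- library, and both groups were near the limit of the filter. Arg2 had a log2 difference of -0.70 (standard error 0.30, 95% interval -1.42 to 0.01, adjusted p = 0.356 from limma, two-sided exact permutation p = 0.1). It was from -0.86 to -0.49 with 1 library left out, the smallest in size without WT replicate 2. On the log2(TPM + 0.1) scale it was -1.29, as the addition of 1 weighs heavily at such levels. Neutrophil transcripts were lower in C5aR-/- libraries as well, with groups that did not overlap in their sum, although the sort excluded Ly6G+ cells. The summed TPM of the 12 neutrophil markers was from 666 to 2567 in WT and from 33.6 to 443 in C5aR-/- libraries. S100a9 was the largest part of it in every library, from 401 to 1409 in WT and from 10.7 to 216 in C5aR-/- libraries. All 11 that were tested had a lower mean in C5aR-/- TAMs, and 7 of them passed the unadjusted threshold, against 4.96% of all genes. Groups did not overlap for 5 of the 11, against 21.3% of all genes, while those of Mpo, Elane, Camp, Ngp, Ltf and Retnlg overlapped. Their part in the Arg2 values was not tested.

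Nos2 was low in both groups and varied more within them than between them. Its TPM was 0.13, 0.67 and 4.38 in WT and 0.17, 1.86 and 1.63 in C5aR-/- TAMs. WT replicate 3 had the highest value, and replicate 1 of each group the lowest. The log2 difference was -0.07 (standard error 0.65, 95% interval -1.61 to 1.48, adjusted p = 0.972 from limma). Its sign was not stable, with 0.59 without WT replicate 3 and -0.54 without WT replicate 1. Ifng, an inducer of Nos2, was also highest in WT replicate 3, with a TPM of 1.10, 6.43 and 18.1 in WT and of 3.25, 2.60 and 1.90 in C5aR-/- TAMs. Among the C5aR-/- libraries, replicate 1 had the highest Ifng and the lowest Nos2. The part of Ifng in the Nos2 values was not tested.

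Ratios within a library set these enzymes against each other. The log2 ratio of Arg1 to Nos2 was 7.32, 5.63 and 3.59 in WT and 7.67, 6.93 and 5.41 in C5aR-/- TAMs. Arg1 was above Nos2 in every library, by up to 203-fold (as TPM + 1), while the groups overlapped and the difference of 1.16 was smaller than the SD of the WT group (1.87, n = 3). This difference was 0.19 without WT replicate 3, 0.66 without C5aR-/- replicate 1, 1.79 without C5aR-/- replicate 3 and 2.06 without WT replicate 1. The two-sided exact permutation p was 0.5, and 0.5 after adjustment over the 3 ratios tested.
The log2 ratio of Arg1 to Arg2 was 6.27, 4.53 and 4.83 in WT and 7.21, 7.41 and 6.38 in C5aR-/- TAMs. All C5aR-/- libraries lay above all WT libraries, with a difference of 1.79 (exact permutation p = 0.1, adjusted p = 0.3), which ranged from 1.45 to 2.32 when single libraries were left out. After quantile normalization the difference was 1.65 with an exact permutation p of 0.2. Separate groups give 0.1 in this test, so the groups overlapped on that scale. Arg1 made up from 96.9% to 99.3% of the summed arginase TPM in WT and from 99.7% to 99.8% in C5aR-/- libraries.

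**Figure D3:**
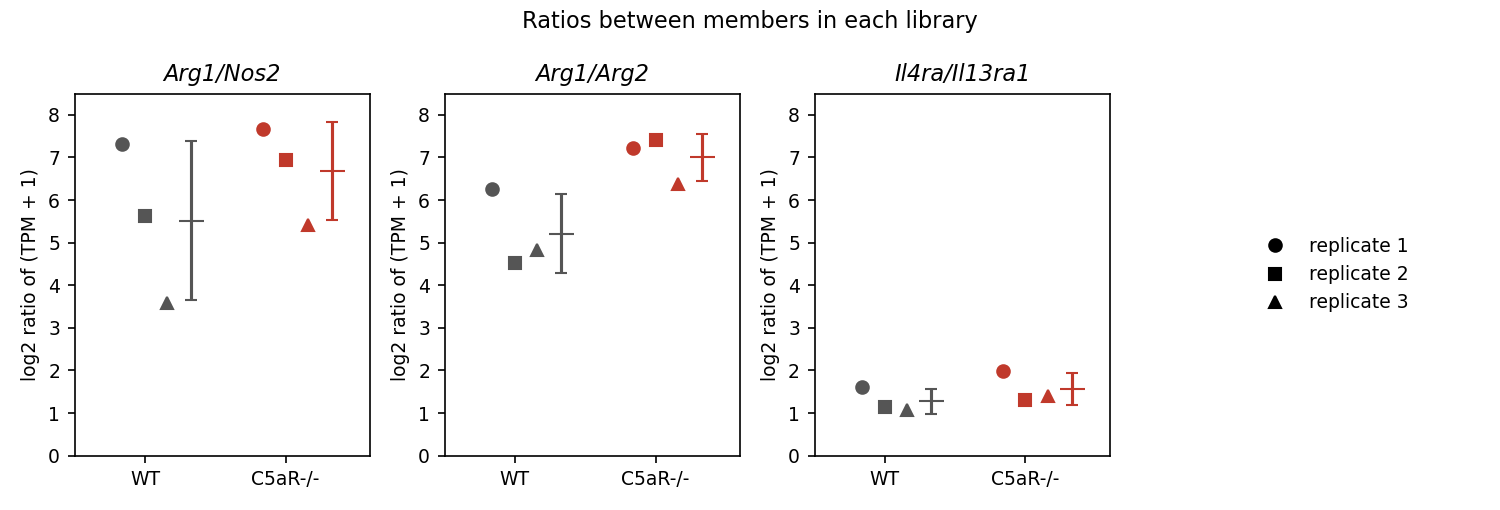
Log2 ratio of (TPM + 1) between pairs of members (vertical axis) in the 3 WT (grey) and 3 C5aR-/- (red) libraries, with the mean ± SD beside each group (n = 3). The Arg1 to Arg2 ratio is higher in all C5aR-/- than in all WT libraries, and the Arg1 to Nos2 and Il4ra to Il13ra1 ratios overlap.

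The secreted IL-4 effectors had lower means in C5aR-/- TAMs, and on the log2(TPM + 1) scale their SD within each group was larger than that of any other member. Retnla, which encodes the resistin-like protein RELM-alpha, had a TPM of 124, 47.7 and 8.45 in WT and of 50.6, 11.7 and 1.34 in C5aR-/- TAMs. The groups overlapped, and the highest value was 14.7 times the lowest in WT and 37.8 times in C5aR-/- TAMs. The log2 difference was -1.74 (standard error 1.31, 95% interval -4.87 to 1.39, adjusted p = 0.59 from limma). With 1 library left out it was from -2.82 (without C5aR-/- replicate 1) to -0.59 (without C5aR-/- replicate 3).

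Chil3, a chitinase-like protein that lacks chitinase activity, had a TPM of 33.4, 26.1 and 3.90 in WT and of 15.8, 6.80 and 2.72 in C5aR-/- TAMs. WT replicates 1 and 2 lay above all C5aR-/- libraries and WT replicate 3 below C5aR-/- replicates 1 and 2. The log2 difference was -1.08 (standard error 0.85, 95% interval -3.11 to 0.96, adjusted p = 0.608 from limma). Without WT replicate 3 it was -1.96 and past the unadjusted threshold (unadjusted p = 0.0216, limma), and without C5aR-/- replicate 3 it was -0.54. Chil3 has a close copy in Chil4, which was listed at 0 in 5 libraries and at 0.19 in C5aR-/- replicate 1. How reads shared by these genes were assigned was not tested.

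Retnla and Chil3 ranked the libraries alike within each group, with replicate 1 highest and replicate 3 lowest. Pearson's r between them was 0.96 over the 6 libraries on the log2(TPM + 1) scale, the highest among the 21 pairs of members, against 0.24 for Arg1 with Retnla and 0.20 for Arg1 with Chil3. Nos2 went the opposite way, with r of -0.82 to Chil3 and -0.74 to Retnla. These coefficients describe 6 libraries that also share their cell makeup. The summed macrophage markers had the same order within each group as Retnla and Chil3. With the mean of the 10 macrophage markers as a covariate, the log2 difference was -2.51 for Retnla (95% interval -3.70 to -1.31) and -1.52 for Chil3 (95% interval -2.78 to -0.26), both past the unadjusted threshold (unadjusted p = 0.00229 and 0.0260) and neither past the adjusted one (adjusted p = 0.105 and 0.213, limma). Arg1 had a log2 difference of 0.83 in the same fit (adjusted p = 0.271, limma). This covariate fit called 931 of all tested genes at the unadjusted threshold, in place of 733 without the covariate.

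**Figure D4:**
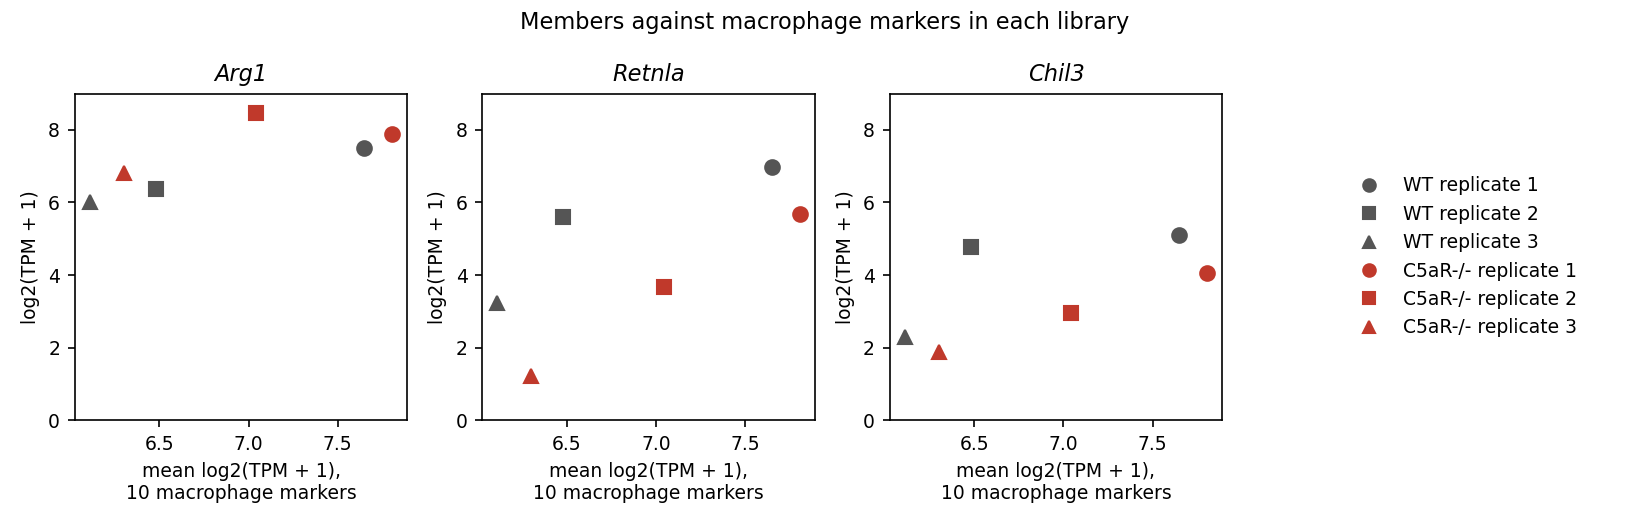
Level of Arg1, Retnla and Chil3 as log2(TPM + 1) (vertical axes) against the mean log2(TPM + 1) of 10 macrophage markers (horizontal axes), 1 symbol per library, WT in grey and C5aR-/- in red. Replicate 1 of each group has the highest marker mean (7.65 in WT and 7.81 in C5aR-/-), Retnla and Chil3 have the same order as the marker mean within each group, and Arg1 is highest in C5aR-/- replicate 2, at a marker mean of 7.04.

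Most markers of large peritoneal macrophages, the resident cells of the cavity, were also lower in their means. All 8 had a lower mean in C5aR-/- TAMs, 4 of them past the unadjusted threshold, against 4.96% of all genes. Gata6 hardly differed (log2 difference -0.16, 95% interval -0.51 to 0.18). The summed TPM of the 8 markers was from 216 to 954 in WT and from 109.5 to 277 in C5aR-/- libraries, so that the groups overlapped. Neutrophil markers were lower too, as given above, and the 6 eosinophil markers had a summed TPM of at most 13.3. Of the 7 monocyte markers, 5 had a lower mean and Ly6c2 and Hp passed the unadjusted threshold as lower, with a summed TPM from 791 to 1257 in WT and from 355 to 1025 in C5aR-/- libraries. Of the 6 tested mast cell markers, the proteases Cpa3, Mcpt4, Tpsb2 and Cma1 and the receptor chain Fcer1a passed it as lower, with Cpa3 from 11.9 to 26.7 TPM in WT and at most 1.59 in C5aR-/- libraries, while Kit passed it as higher. The summed mesothelial markers lay close but did not overlap, from 1068 to 1448 in WT and from 766 to 1066 in C5aR-/- libraries. Of these 6 markers, 5 had a lower mean in C5aR-/- TAMs and 3 passed the unadjusted threshold as lower. Msln went the other way without overlap (log2 difference 0.88), and Wt1 hardly differed (-0.10). The part of any of these cells in the Retnla and Chil3 values was not tested.

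The receptor chains had the steadiest levels of the 7 genes. Il4ra, the chain shared by the IL-4 and IL-13 receptors, had a TPM of 79.2, 69.4 and 90.5 in WT and of 114.6, 85.6 and 75.8 in C5aR-/- TAMs, with groups that overlapped. Il4ra had a log2 difference of 0.19 (standard error 0.19, 95% interval -0.26 to 0.65, adjusted p = 0.686 from limma), so that a change of 2-fold lay outside the interval in either direction. Il13ra1, which pairs with Il4ra to form the type II receptor, had a TPM of 25.4, 30.8 and 42.5 in WT and of 28.1, 34.2 and 28.1 in C5aR-/- TAMs. All C5aR-/- values lay within the WT range. Il13ra1 had a log2 difference of -0.10 (standard error 0.21, 95% interval -0.60 to 0.41, adjusted p = 0.869 from limma), which also leaves a 2-fold change outside. The log2 ratio of Il4ra to Il13ra1 was from 1.07 to 1.61 in WT and from 1.30 to 1.99 in C5aR-/- TAMs, a difference of 0.29 (exact permutation p = 0.4, adjusted p = 0.5) that was 0.07 without C5aR-/- replicate 1, 0.19 without WT replicate 3 and 0.45 without WT replicate 1.

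The rest of the pathway was followed with 8 lists, of which 87 of 96 genes were tested. At the unadjusted threshold 5 genes were higher and 1 lower in C5aR-/- TAMs, 6.90% of those tested against 4.96% of all genes, and 0 passed the adjusted threshold. Groups did not overlap for 17 of the 87 genes (19.5%), against 21.3% of all genes. The median log2 difference over all tested genes was -0.05.
Around arginase, the 7 tested genes of arginine uptake and recycling had a median log2 difference of 0.36, with 4 above 0 and 0 past the unadjusted threshold. The transporters Slc7a1 and Slc7a2, which carry arginine into the cell, had log2 differences of 0.36 and 0.62, and Slc7a2 spread from a TPM of 16.9 to 97.6 among C5aR-/- libraries. Slc7a6 and Slc3a2, which together form an amino acid exchanger, were the 2 tested genes of this list with groups that did not overlap. The arginine transporter Slc7a3, under the filter, did not overlap either (TPM from 0.45 to 0.81 in WT and from 0.85 to 2.16 in C5aR-/- libraries). Slc3a2 had a TPM of 177.9, 154.7 and 124.4 in WT and of 261, 229 and 185 in C5aR-/- TAMs (log2 difference 0.56, 95% interval 0.10 to 1.02).

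Of the 11 tested genes that lead from ornithine to polyamines, 8 had a log2 difference above 0, with a median of 0.33 and 0 past the unadjusted threshold. The median was 0.18 without C5aR-/- replicate 1. Odc1, which makes putrescine from ornithine, had a TPM of 146.7, 127.9 and 104.0 in WT and of 161.8, 205 and 186 in C5aR-/- TAMs, without overlap (log2 difference 0.55, 95% interval 0.15 to 0.96). The polyamine oxidases Smox and Paox were the other genes of this list whose groups did not overlap, with log2 differences of 0.92 and 0.71, and Srm and Sms, the spermidine and spermine synthases, had 0.27 and 0.02. The 6 genes from ornithine to proline and glutamate had a median of 0.32, which was 0.06 without C5aR-/- replicate 3 and 0.20 without WT replicate 1. Pycr1, the proline-forming reductase, did not overlap (log2 difference 0.97), and Oat, which commits ornithine to this branch, had -0.25.
Around nitric oxide, Nos1 was past the unadjusted threshold. Nos1, the neuronal form of nitric oxide synthase, had a TPM of 5.05, 5.95 and 1.83 in WT and of 9.29, 23.0 and 17.0 in C5aR-/- TAMs, so that it exceeded Nos2 in 5 of the 6 libraries. Its log2 difference was 1.74 (standard error 0.45, 95% interval 0.68 to 2.81, unadjusted p = 0.00637, limma), and it passed the same threshold in each of the 14 alternative fits. The other 8 tested genes of this list, which include Gch1 and Pts of tetrahydrobiopterin synthesis, had log2 differences of -0.25 for Gch1 and -0.47 for Pts, and 0 of the 8 passed. The 14 genes of the signal that induces Nos2 had a median of -0.37, with 10 below 0 and 0 past the unadjusted threshold, among them Ifng (-0.92). That median was -0.19 without C5aR-/- replicate 3 and -0.20 without WT replicate 3.

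Around the IL-4 receptor, the ligands were hardly detected. Il4 had a TPM of at most 0.90 and Il13 of at most 0.29, Il13 was listed at 0 in all C5aR-/- libraries, and both were under the filter, as was the decoy receptor Il13ra2. The 10 tested genes of this list had a median of -0.11 (0.05 without C5aR-/- replicate 3, -0.03 without WT replicate 3 and -0.17 without WT replicate 1) and 0 past the unadjusted threshold, with a log2 difference of -0.35 for Il2rg (the common gamma chain), -0.59 for Jak1 and -0.19 for Stat6.
The 18 other tested IL-4 effector genes had values in both directions. The median log2 difference was 0.13, 3 genes were higher at the unadjusted threshold and 1 was lower. The sign and size of this median rested on single libraries, as it was -0.09 without WT replicate 3, 0.04 without C5aR-/- replicate 1, 0.42 without WT replicate 1 and 0.64 without C5aR-/- replicate 3. Ccl17, a chemokine for CCR4+ cells, had a TPM of 0.61, 3.25 and 2.79 in WT and of 7.11, 12.7 and 7.97 in C5aR-/- TAMs, without overlap, a log2 difference of 1.76 (standard error 0.42, unadjusted p = 0.0048, limma). The lectin gene Mgl2 (1.65) and the nuclear receptor Pparg (1.48) were the other higher genes. Alox15, a lipoxygenase that is also a large peritoneal macrophage marker, was lower, with a TPM of 411, 92.6 and 33.6 in WT and of 22.5, 42.7 and 5.87 in C5aR-/- TAMs, with a log2 difference of -2.52 (standard error 1.01, unadjusted p = 0.0430, limma). Mrc1, the gene of CD206, had a log2 difference of 1.46 with an interval from -0.74 to 3.66, and Clec10a one of 0.13. Of the 6 called genes of all lists, Ccl17, Nos1 and Pparg kept the call whichever library was left out, and Mgl2, Alox15 and Vegfa lost it in 4, 4 and 3 of the 6 fits.
Among 12 other genes tied to Arg1 control, the median was -0.02 (from -0.28 without C5aR-/- replicate 1 to 0.06 without C5aR-/- replicate 3), and Vegfa, a hypoxia target and growth factor, passed the unadjusted threshold as higher (TPM of 52.9, 65.7 and 47.1 in WT and of 70.7, 152 and 217 in C5aR-/- TAMs, log2 difference 1.26, unadjusted p = 0.0160, limma). Cebpb, a factor that drives Arg1, had a log2 difference of 0.38 (95% interval -1.10 to 1.85), and Hif1a one of -0.04.

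**Figure D5:**
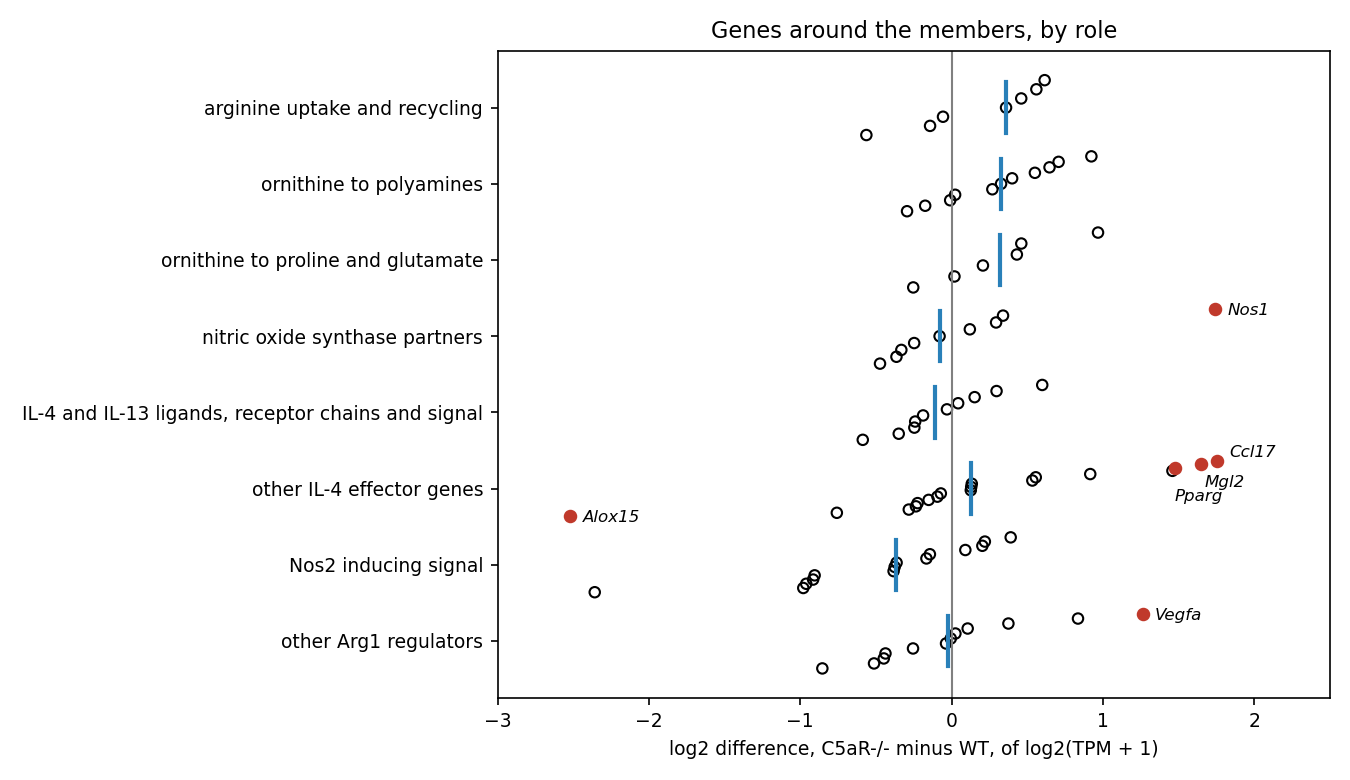
Log2 difference, C5aR-/- minus WT, of log2(TPM + 1) (horizontal axis) for the 87 tested genes of the 8 lists, 1 circle per gene. Blue bars are list medians, and red named circles are the 6 genes past the unadjusted threshold (2-fold, p below 0.05), of which 5 lie to the right of 0 and Alox15 to the left.

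For each member, the tested genes with the most similar levels over the 6 libraries were listed by Pearson's r of log2(TPM + 1), 3 per member. With 6 points and 14776 genes, values near 1 arise for any pattern, so the names are a description of these libraries. For Arg1 they were Fam217b (r = 0.994), Lpar1 (0.982) and Gpr35 (0.973), all higher in C5aR-/- replicate 2 than in any other library. For Arg2 they were Btbd7, Rnf2 and Rgn (0.992 to 0.995), and for Nos2 Gm36535, Arv1 and Coq6 (0.993 to 0.996). Retnla was matched by Gm21370, Tiparp and Gm3435 (0.992 to 0.996) and Chil3 by Ighv11-2, Prl3b1 and A530030E21Rik (0.983 to 0.992). Il4ra was matched by Anks1, Orai1 and Cd47 (0.985 to 0.994), and Il13ra1 by Ephb6, Asb2 and Junos (0.987 to 0.993). Ighv11-2, an antibody gene segment of B cells, had a TPM of 56.0, 35.0 and 1.23 in WT and of 14.0, 4.46 and 1.39 in C5aR-/- libraries. The summed TPM of the 4 B cell markers was 470, 347 and 75.7 in WT and 414, 153 and 30.8 in C5aR-/- libraries, so that C5aR-/- replicate 1 lay above WT replicate 2 in this sum and below it in Ighv11-2.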

How the data were processed

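RNA of sorted TAMs was measured in 6 libraries, 3 WT and 3 C5aR-/-, mapped to groups by their titles. Per the study's methods, the authors used fastp for trimming, HISAT2 for alignment and StringTie for assembly and quantification of transcripts, and the submitters' processing notes also list RSEM, DESeq2 and the build mm10. The deposited values are TPM per gene, although the methods name FPKM, and versions and the annotation release are not given in the sources used here. The table also holds 2 columns of the authors' group means, which were not used. TPM was not tested with count models. Of 56980 gene IDs, 52073 matched a symbol.

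Levels were tested as log2(TPM + 1) with limma 3.58.1 in R 4.3.3 (lmFit, eBayes with trend, Benjamini-Hochberg adjustment) over genes that reached a TPM of 1 in 3 or more libraries. Summaries and exact permutation tests used pandas 2.3.3, numpy 2.4.6 and scipy 1.17.1. The fit was tested on simulated data. The members and lists were chosen with earlier results of these data known. Named genes are C5ar1, the 7 members, list genes past the unadjusted threshold, the first genes of each list and the 3 nearest genes of each member. Slc3a2, Smox, Paox, Pts, Jak1, Stat6 and the marker genes were named after their values were seen. Alternatives were a pseudocount of 0.1, other filters and scalings, eBayes without trend, a replicate block, a macrophage marker covariate, and leaving out each library.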

Additional observations from a re-analysis of the deposited data

How the results depend on the processing

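Of 96 alternative log2 differences of the 7 members, 90 kept their direction, 6 reversed and 0 passed the adjusted threshold (lowest adjusted p 0.105, limma). Nos2 reversed with a pseudocount of 0.1 (0.069), quantile normalization (0.18) and the macrophage marker covariate (0.24), and leaving out single libraries gave -0.54 to 0.59, above 0 without WT replicate 3 or C5aR-/- replicate 1. Il13ra1 ranged from -0.26 to 0.099 in these fits, above 0 without WT replicate 3. Genes at the adjusted threshold numbered 2 for eBayes without trend, 29 with the covariate and 0 to 356 with libraries left out. Genes at the unadjusted threshold numbered 475 at a TPM of 5 in 3 libraries (where Arg2 and Nos2 were not tested). They numbered 931 with the covariate and 567 to 1266 with libraries left out, the most without C5aR-/- replicate 1. Of the pathway list genes, 10 were called with the covariate and 4 to 9 with libraries left out. Of the members, 2 were called with the covariate and 0 to 1 with libraries left out. The deviations of same-numbered libraries from their group means correlated with r of 0.19, -0.01 and 0.27. The labels do not say whether the numbers pair the libraries, and these values cannot decide it. With the replicate number as a block, 3 members passed the unadjusted threshold: Arg1 (1.09, adjusted p = 0.273), Retnla (-1.74, adjusted p = 0.109) and Chil3 (-1.08, adjusted p = 0.241, limma), and 8 list genes. The cause of these shifts was not tested. Since TPM keeps no depth, the counting error of Arg2 and Nos2 is unknown.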
